A study of Mus musculus with 20 samples.

Results

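Myc (ENSMUSG00000022346), Ccnd1 (ENSMUSG00000070348), Mki67 (ENSMUSG00000031004) and Top2a (ENSMUSG00000020914), genes that are read as signs of cell growth and division, were followed through all 20 libraries of a study of mouse nephron progenitor cells (NPCs). These 4 of the 31130 genes in the table were taken by their identifiers. All 4 passed the filter on low values. The question was whether the dose of CHIR, or the loss of a catenin or of cadherins, moved their messenger RNA. The NPCs were primary cells isolated from embryonic kidneys that carried Cas9 and eGFP in every group. They were transfected with single guide RNAs (sgRNAs) together with mCherry mRNA, cultured in low (1.25 µM) or high (5 µM) CHIR, and the mCherry+ cells were sorted for sequencing. Control cells (CTRL) received an sgRNA against GFP, so that they carried a cut outside the studied genes. The α-catenin KO cells received an sgRNA against Ctnna1, the β-catenin KO cells one against Ctnnb1, and in the quadruple cadherin KO (QCKO) the cadherin genes Cdh2, Cdh3, Cdh4 and Cdh11 were targeted together. Each CHIR dose held 3 CTRL, 3 β-catenin KO, 2 α-catenin KO (replicates 1 and 3) and 2 QCKO libraries (replicates 2 and 3). A replicate number stands for 1 date in the sample titles. It is called the culture date here, although the titles do not say which step was done on that date. Each knockout was a mixed population of sorted cells rather than a clone.

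NPCs renew themselves or, under a Wnt signal, leave the progenitor state and form nephrons. CHIR blocks GSK3β, a kinase whose activity leads to the degradation of β-catenin, and so imitates a Wnt signal inside the cell. Myc is a transcription factor that drives ribosome production and entry into the cell cycle. Ccnd1 encodes cyclin D1, which activates the kinases that carry cells through G1. Both are known in other tissues as genes that β-catenin and its Lef/Tcf partners can activate. Mki67 encodes the Ki-67 protein, which coats mitotic chromosomes and is present in cycling cells. Top2a encodes the DNA topoisomerase that untangles chromosomes before they separate. Transcripts of Mki67 and Top2a build up from S phase to mitosis, so a bulk level depends on how many cells are cycling as well as on the amount of RNA in each. Fewer cycling cells and less RNA per cycling cell cannot be told apart in these libraries.

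RefSeq places Myc on chromosome 15 (61985341 to 61990361), Ccnd1 on chromosome 7 (144929931 to 144939831), Mki67 on the same chromosome (135689784 to 135716450) and Top2a on chromosome 11 (98992947 to 99024199), all in GRCm38.p6, the mouse assembly named in the submitters' processing notes. Promoter sequences were matched for 2 of the 4 genes, Mki67 and Top2a. They are shown because these are the pair of mitotic genes whose responses to CHIR are set side by side here. Each line holds the 250 bases before the start used in the RefSeq promoter table, which for both genes lies slightly inside the outermost end of the gene, 5′ to 3′, with capitals on matches to motifs of late cell cycle genes. The first kind is the cell cycle homology element, spelled TTTGAA or, on the other strand, TTCAAA, with the palindrome TTCGAA as a variant. The second is the CCAAT box, which reads ATTGG on the other strand.
Mki67, chr7:135716380-135716629, minus strand: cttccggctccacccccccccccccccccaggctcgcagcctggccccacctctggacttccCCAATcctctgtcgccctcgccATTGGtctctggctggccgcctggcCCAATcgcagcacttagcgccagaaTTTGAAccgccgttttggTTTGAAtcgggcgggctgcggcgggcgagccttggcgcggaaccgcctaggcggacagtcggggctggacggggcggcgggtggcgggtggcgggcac
Top2a, chr11:99024190-99024439, minus strand: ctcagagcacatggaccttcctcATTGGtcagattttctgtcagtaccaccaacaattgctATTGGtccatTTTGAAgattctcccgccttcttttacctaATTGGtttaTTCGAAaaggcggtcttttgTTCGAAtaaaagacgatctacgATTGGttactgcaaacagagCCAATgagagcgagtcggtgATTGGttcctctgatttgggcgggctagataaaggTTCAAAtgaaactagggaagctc
The Mki67 stretch held 2 of the first kind of match and 3 CCAAT boxes, and the Top2a stretch held 4 and 6. Among the 32851 promoters of the table, 17.1% held at least 1 match of the first kind in the same window and 33.8% held at least 1 CCAAT box. The matches are letters in a window, and no binding was measured.

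The libraries held between 18124772 and 28472412 reads. Values are normalized counts, which are reads divided by 1 size factor per library. CTRL high CHIR replicate 2 stood apart, with a normalized total of 28329411 against 20081901 to 23674964 in the other 19 libraries. Many of the results it moved are therefore also given without it. Ctnna1, the target in α-catenin KO, was at 40.4% of the CTRL mean in low CHIR and 47.4% in high CHIR, below every CTRL library. Of the QCKO targets, Cdh11 was below every CTRL library (50.0% and 40.2% of the CTRL mean), and the QCKO and CTRL libraries overlapped for Cdh2, Cdh3 and Cdh4. A cut in a coding sequence need not lower the transcript. Ctnnb1 was not checked here. The libraries labelled β-catenin KO differed among themselves in the feedback target of Wnt signalling Axin2. It was at 13.97 in low CHIR and 18.5 in high CHIR in replicate 1, below every CTRL library (39.3 to 434.7), but at 559.7 and 742.6 in replicate 2 and at 383.6 and 686.9 in replicate 3. Notum, another such target, was at 1.07 and 4.62 in replicate 1, at 561.7 and 406.8 in replicate 2 and at 325.1 and 577.7 in replicate 3, against 3.57 to 6.50 in CTRL in low CHIR and 102.1 to 311.9 in high CHIR. Replicate 1 was thus near or below CTRL in low CHIR in both genes, and replicates 2 and 3 were far above it at either dose. The 4 members are therefore given in each β-catenin KO library, while the fits and list counts pool the 3 replicates. Six2, the defining gene of NPCs, lay between 772.7 and 1642 in all low CHIR libraries, between 409 and 798 in β-catenin KO in high CHIR and between 27.8 and 83.8 in the other groups in high CHIR. The self-renewal genes (7 of 7 measured) all fell and the induction genes (9 of 9) all rose on average across CTRL, α-catenin KO and QCKO, where 18.3% of all genes tested were called. Names were paired mainly for genes that passed a threshold in a deposited comparison of these samples, so these counts are not independent evidence.

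Myc was lower in high CHIR in the groups whose β-catenin was not targeted. In CTRL its normalized count was 1149.6, 2366 and 1600.45 in low CHIR (replicates 1, 2 and 3) and 359.5, 160.2 and 525.0 in high CHIR. The groups did not overlap, and the lowest value came from the library with the large normalized total. In α-catenin KO Myc was at 1073.7 and 1613 in low CHIR and at 407 and 720.1 in high CHIR (replicates 1 and 3). In QCKO it was at 1973.6 and 1386 in low CHIR and at 664 and 740 in high CHIR (replicates 2 and 3). Across these groups the 7 low CHIR libraries, from 1073.7 to 2366, all lay above the 7 high CHIR libraries, from 160.2 to 739.7. Groups of 7 against 7 were also free of overlap for 11.6% of the 16516 genes tested, and groups of 3 against 3 in CTRL for 26.1%. Within each culture date the log2 ratio of high over low CHIR was below 0 in 7 of 7 pairs, from -3.88 to -0.91. Here and for the other members, the 7 pairs come from 3 dates. The share of all genes with 7 pairs on 1 side of 0 was not counted.

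Genes were called in the limma fit where the adjusted p was under 0.05 and the log2 fold change was past 0.5 either way. Myc was called in CTRL, where it fell by 2.39 on the log2 scale (SE 0.40, adjusted p = 0.00222). It was the 1 member of 4 called there, against 10.7% of all genes tested. In α-catenin KO Myc had a log2 fold change of -1.28 (SE 0.49, adjusted p = 0.22) and in QCKO of -1.24 (SE 0.49, adjusted p = 0.234). No member was called in either, against 4.39% and 4.93% of genes, although Myc and Mki67 were under an unadjusted p of 0.05 in both, also with edgeR and DESeq2, which called none. Fitted to the 4 libraries of the group alone, Mki67 was called in α-catenin KO (adjusted p = 0.045), and Myc (adjusted p = 0.00607) and Mki67 (adjusted p = 0.0354) in QCKO. Averaged over CTRL, α-catenin KO and QCKO, Myc fell by 1.63 on the log2 scale (95% interval -2.21 to -1.06, adjusted p = 0.000754). Without CTRL high CHIR replicate 2 the average was -1.48 (adjusted p = 0.000303) and the CTRL value -1.91 (adjusted p = 0.0041). The difference between the response in CTRL and that in α-catenin KO was 1.11 for Myc (adjusted p = 0.999) and in QCKO 1.15 (adjusted p = 1), with 95% intervals of -0.27 to 2.48 and -0.22 to 2.52. Without CTRL high CHIR replicate 2 these differences were 0.63 and 0.67.

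Mki67 also had lower values in high CHIR, by less. In CTRL it was at 1846, 1660.5 and 2219.7 in low CHIR and at 1085, 928.2 and 1758 in high CHIR. Replicate 3 in high CHIR lay above replicate 2 in low CHIR, so the groups overlapped. In α-catenin KO it was at 2117 and 1777 in low CHIR and at 1079 and 1025 in high CHIR. In QCKO it was at 2480.2 and 1905 in low CHIR and at 1459.7 and 1069.8 in high CHIR. The ratio of high over low CHIR was below 0 in 7 of 7 date-matched pairs, from -0.97 to -0.34 on the log2 scale. Averaged over the 3 groups, Mki67 fell by 0.78 on the log2 scale (95% interval -1.11 to -0.44, adjusted p = 0.00326), to 0.584 of its level in low CHIR. With Myc it made 2 of 4 members called in the average, against 18.3% of all genes tested. Taken alone, CTRL gave -0.65 (SE 0.23, adjusted p = 0.098), α-catenin KO -0.88 (SE 0.29, adjusted p = 0.129) and QCKO -0.80 (SE 0.29, adjusted p = 0.175). The CTRL value crossed the threshold without CTRL high CHIR replicate 3 (-0.92, adjusted p = 0.0199), and was -0.46 (adjusted p = 0.261) without CTRL high CHIR replicate 2.

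Top2a, the other mitotic gene, was not called between the doses. It was at 10945.8, 8219 and 10619 in low CHIR and at 9441, 8185 and 9092 in high CHIR in CTRL. In α-catenin KO it went from 9797 and 9369 in low CHIR to 9055 and 8147 in high CHIR. In QCKO it was at 11900.3 and 8858 in low CHIR and at 9343 and 8295 in high CHIR. The ranges of the doses overlapped over the 7 libraries each, although the high CHIR library was the lower one in 7 of 7 date-matched pairs (-0.35 to -0.01 on the log2 scale). The average log2 fold change was -0.18 (SE 0.11, adjusted p = 0.28), with a 95% interval of -0.41 to 0.06. Quantile normalization gave -0.38 in the average (adjusted p = 0.029), short of the fold change asked for a call, and -0.40 in CTRL (adjusted p = 0.147) in place of -0.15, which was -0.09 without CTRL high CHIR replicate 2.

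Ccnd1 differed widely between culture dates, and its ranges at the 2 doses overlapped. In low CHIR replicate 1 gave 200.5 to 352.5 over its 3 libraries, and replicates 2 and 3 gave 353.9 to 994.5. CTRL libraries were at 209.7, 602.2 and 565.2 in low CHIR and at 641.9, 255.3 and 1262 in high CHIR. The value of 255.3 came from the library with the large normalized total, and the log2 ratio of its pair was -1.24 where the other 2 CTRL pairs gave 1.61 and 1.16. The CTRL log2 fold change was 0.51 (adjusted p = 0.609), and 1.115 (adjusted p = 0.277) without that library. In α-catenin KO Ccnd1 was at 200.5 and 526.2 in low CHIR and at 519.1 and 680.7 in high CHIR, and in QCKO at 353.9 and 660.4 in low CHIR and at 460.0 and 1114 in high CHIR. High CHIR was thus the higher library in 6 of 7 pairs. The average log2 fold change was 0.65 (SE 0.40, adjusted p = 0.279), with a 95% interval of -0.22 to 1.51, and 0.85 (adjusted p = 0.0999) without CTRL high CHIR replicate 2. Leaving out 1 library in turn gave 0.417 to 0.880, the lowest without α-catenin KO low CHIR replicate 1.

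**Figure D1:**
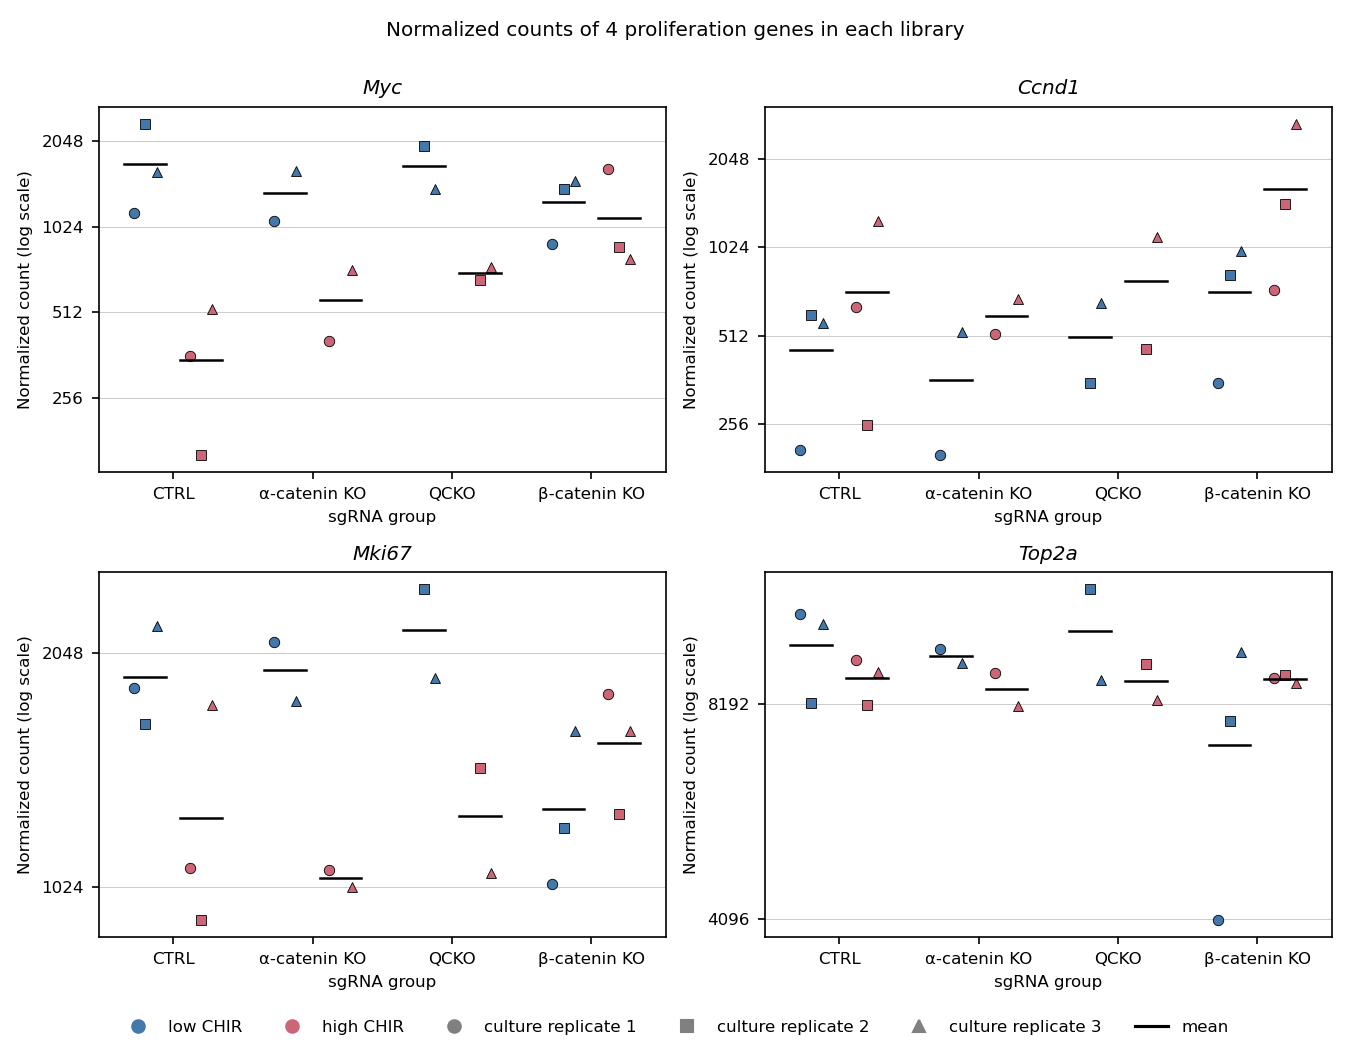
Normalized counts (log scale) of Myc, Ccnd1, Mki67 and Top2a in each of the 20 libraries, by sgRNA group and CHIR dose. Point shapes are culture replicates and bars are group means (n = 3 for CTRL and β-catenin KO, n = 2 for α-catenin KO and QCKO). Myc in high CHIR lies at 160.2 to 739.7 in CTRL, α-catenin KO and QCKO and at 788.4 to 1636 in β-catenin KO.

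In β-catenin KO none of the 4 genes was called between the doses. Myc was at 892.0, 1396 and 1479 in low CHIR and at 1636, 867.8 and 788 in high CHIR. Replicate 1 was thus higher in high CHIR and replicates 2 and 3 were lower. Mki67 was at 1034, 1219 and 1625 in low CHIR and at 1816, 1273 and 1626 in high CHIR, so that replicate 3 was the same at both doses. Top2a was at 4075, 7772 and 9707 in low CHIR and at 8913, 9014 and 8763 in high CHIR. Its value of 4075 in low CHIR replicate 1 was the lowest of the 20 libraries, and all others lay between 7772 and 11900.3. Ccnd1 was at 352.5, 825.6 and 994.5 in low CHIR and at 731, 1434 and 2698 in high CHIR, higher in high CHIR in 3 of 3 pairs.

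The log2 fold changes of β-catenin KO between the doses were -0.24 for Myc (95% interval -1.09 to 0.62), 1.10 for Ccnd1 (-0.25 to 2.44), 0.29 for Mki67 (-0.21 to 0.79) and 0.40 for Top2a (-0.09 to 0.89). Leaving out 1 library in turn, they ran from -0.567 to -0.041, from 0.630 to 1.571, from 0.144 to 0.470 and from 0.034 to 0.660, with the lowest Top2a and Mki67 values without replicate 1 in low CHIR. By limma 0 of 4 members were called, none at an unadjusted p under 0.05, against 0.018% of the 16691 genes tested with all 20 libraries. By edgeR and DESeq2 the number called was also 0, with 0 and 1 under an unadjusted p of 0.05. The difference between this response and the one in CTRL was tested as an interaction. It was 2.15 for Myc (SE 0.57, unadjusted p = 0.00169, adjusted p = 0.12), 0.94 for Mki67 (SE 0.33, adjusted p = 0.307), 0.55 for Top2a (SE 0.33, adjusted p = 0.585) and 0.58 for Ccnd1 (SE 0.90, adjusted p = 0.843). Without CTRL high CHIR replicate 2 the Myc value was 1.67 (adjusted p = 0.221) and the Ccnd1 value was -0.02. Leaving out 1 library in turn, the Myc value ran from 1.668 to 2.521. Without β-catenin KO low CHIR replicate 1 the Top2a value was 0.18. By limma none of the 4 was called, against 0.671% of genes, with 2 under an unadjusted p of 0.05. DESeq2 on recovered reads called Myc (2.08, adjusted p = 0.0189), and edgeR called 0. The interactions of α-catenin KO and of QCKO were called by limma, edgeR or DESeq2 for no gene (0% each), with 258 and 213 genes under an unadjusted p of 0.05 in limma and no member among them.

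**Figure D2:**
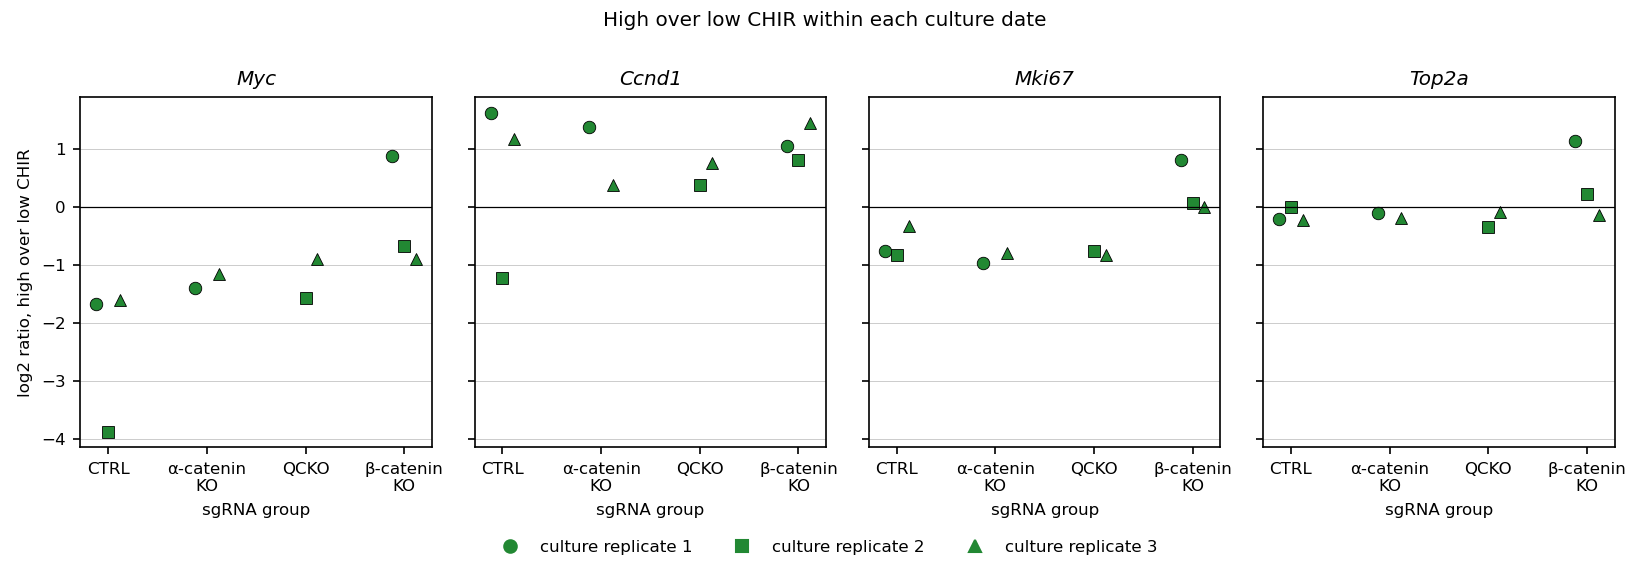
The log2 ratio of high over low CHIR within each culture date, for each gene and sgRNA group. Points are pairs of libraries (7 in CTRL, α-catenin KO and QCKO and 3 in β-catenin KO). Myc and Mki67 are below 0 in 7 of 7 pairs outside β-catenin KO, and Mki67 is at or above 0 in the 3 β-catenin KO pairs (0.001 to 0.81).

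Against CTRL, neither α-catenin KO nor QCKO had a called difference in the 4 genes at either dose. In low CHIR the log2 fold changes of α-catenin KO against CTRL were -0.31 for Myc, -0.35 for Ccnd1, 0.03 for Mki67 and -0.04 for Top2a. Those of QCKO were 0.02, 0.22, 0.20 and 0.06 in the same order. Each knockout lacks 1 of the culture dates in the CTRL mean, and within shared dates the Myc ratios of α-catenin KO in low CHIR were -0.10 and 0.01 and those of QCKO -0.26 and -0.21. Leaving out 1 library moved the Myc value of α-catenin KO from -0.604 to -0.017 and the Mki67 value of QCKO from 0.008 to 0.388. The 95% intervals were widest for Ccnd1 (-1.80 to 1.10 in α-catenin KO) and narrowest for Top2a (-0.43 to 0.35 in α-catenin KO and -0.33 to 0.45 in QCKO). In high CHIR Mki67 differed by -0.20 in α-catenin KO (-0.77 to 0.36) and by 0.05 in QCKO (-0.52 to 0.61), and Top2a by -0.05 (-0.44 to 0.34) and -0.01 (-0.41 to 0.38). The signs of Mki67 in QCKO and of Top2a in both changed with the scaling, and without CTRL high CHIR replicate 2 the Mki67 values were -0.39 and -0.145 and the Top2a values -0.11 and -0.07. Ccnd1 in high CHIR differed by 0.01 in α-catenin KO (-1.44 to 1.46) and by 0.27 in QCKO (-1.17 to 1.72). The CTRL mean includes replicate 2, which α-catenin KO lacks, and within the dates that both hold α-catenin KO was below CTRL in 2 of 2 pairs (-0.31 and -0.89). Without CTRL high CHIR replicate 2 the differences were -0.60 and -0.33.

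The member furthest from CTRL was Myc in high CHIR. Its values of 664 and 740 in QCKO lay above all 3 CTRL values, with a log2 fold change of 1.17 (95% interval 0.20 to 2.14, adjusted p = 0.554), and 26.6% of genes were likewise free of overlap in that comparison. The α-catenin KO value was 0.79 (-0.18 to 1.77, adjusted p = 0.704). Without CTRL high CHIR replicate 2 these values were 0.69 and 0.32. Few genes of any kind were called in these comparisons by limma. The share was 0% for α-catenin KO at each dose, 0.00605% for QCKO in low CHIR and 0% in high CHIR, with 109, 928, 266 and 1444 genes under an unadjusted p of 0.05. edgeR called 0, 0, 1 and 0 genes and DESeq2 called 1, 4, 2 and 7. Among the members 0 were called by any of these tools, and Myc in QCKO in high CHIR alone was under an unadjusted p of 0.05.

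In high CHIR Myc was higher in β-catenin KO than in CTRL. The 3 β-catenin KO libraries, at 788 to 1636, all lay above the 3 CTRL libraries, at 160.2 to 525.0, and the ratio was above 0 in 3 of 3 culture dates (0.59 to 2.43 on the log2 scale). Myc rose by 1.73 on the log2 scale (95% interval 0.88 to 2.59, adjusted p = 0.0139), a 3.32-fold difference. It was the 1 member of 4 called, against 10.5% of all genes tested, and 27% of genes were free of overlap between the same libraries. The call was lost without CTRL high CHIR replicate 2 (1.26, adjusted p = 0.0606), without β-catenin KO high CHIR replicate 1 (1.41, adjusted p = 0.0678) and in a fit to these 6 libraries alone (adjusted p = 0.119). Ccnd1 was higher than CTRL in 3 of 3 culture dates in high CHIR, at 731, 1434 and 2698 against 641.9, 255.3 and 1262. Its log2 fold change of 1.26 (SE 0.63) was not called (adjusted p = 0.209). With the culture date as a replicate block it was called (adjusted p = 0.0452), and without CTRL high CHIR replicate 2 the value was 0.65 (adjusted p = 0.618). Mki67 differed by 0.36 (95% interval -0.14 to 0.86), or 0.17 without that library, and Top2a by 0.00 (-0.49 to 0.49).

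In low CHIR β-catenin KO had lower values of both mitotic genes, short of a call. The Mki67 values of 1034, 1219 and 1625 all lay below the CTRL values of 1660.5 to 2219.7, as was the case in 1 direction or the other for 10.7% of genes. The log2 fold change was -0.58 (95% interval -1.08 to -0.08, adjusted p = 0.659). For Top2a it was -0.55 (-1.04 to -0.05, adjusted p = 0.672), with libraries at 4075 and 7772, below every library of the other groups, and 1 library within their range. Without the library at 4075 the Top2a value was -0.18 (adjusted p = 0.999). Myc differed by -0.41 (-1.27 to 0.44) and Ccnd1 by 0.67 (-0.67 to 2.01). Within culture dates the log2 ratio to CTRL was above 0 in 3 of 3 pairs for Ccnd1 (0.45 to 0.81). It was above 0 in 0 of 3 pairs for Myc (-0.76 to -0.11), Mki67 (-0.84 to -0.45) and Top2a (-1.43 to -0.08). Leaving out 1 library moved Myc from -0.666 to -0.146, the latter without CTRL low CHIR replicate 2, and Ccnd1 from 0.181 without CTRL low CHIR replicate 1 to 1.125 without the β-catenin KO library of that number. By limma 0 of 4 members were called, against 0.0659% of genes, with 2 members under an unadjusted p of 0.05. By edgeR and by DESeq2 the number called was 0, and 1 member was under that p in each.

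**Figure D3:**
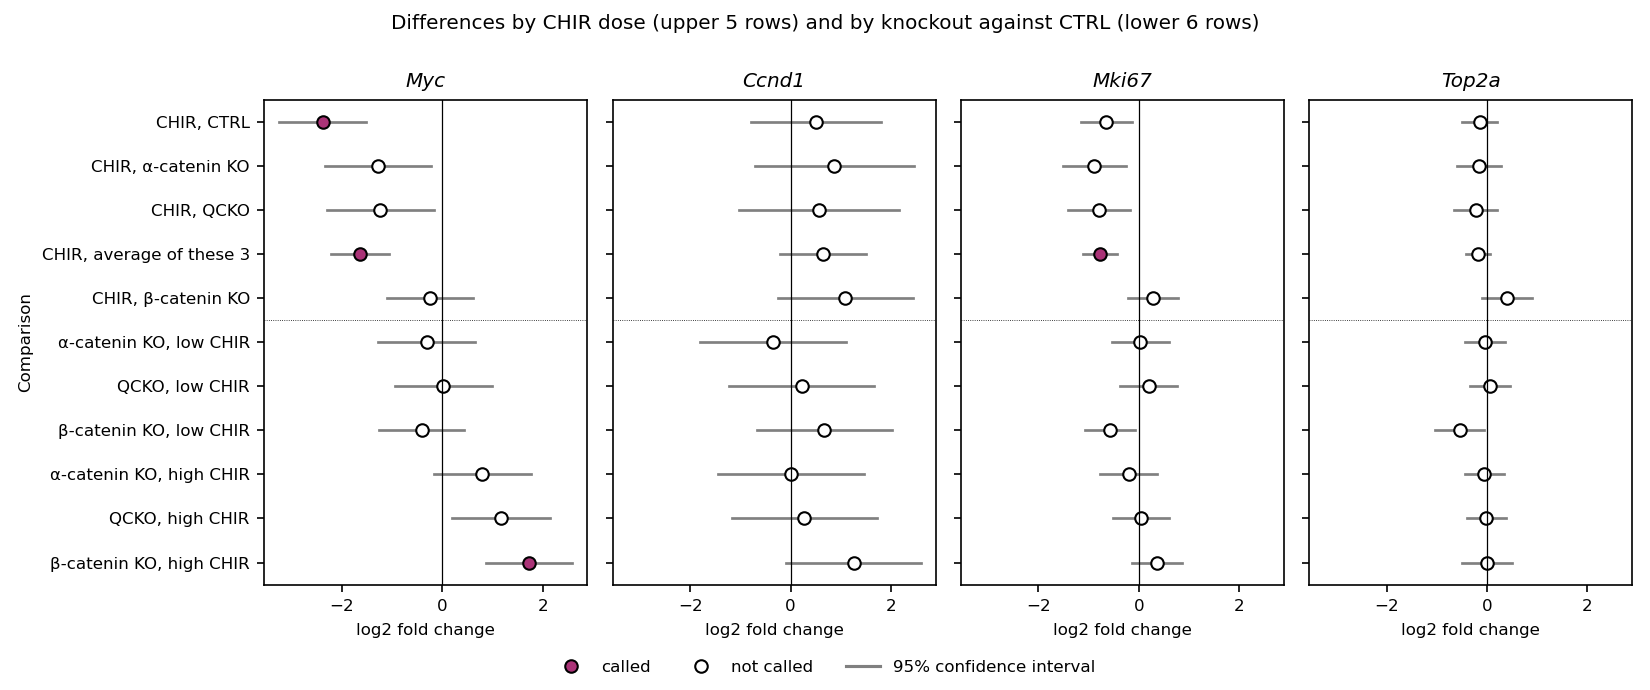
Log2 fold changes of the 4 genes with 95% confidence intervals, for high against low CHIR in each sgRNA group and averaged over the first 3 groups, and for each knockout against CTRL at each dose. Filled points were called by limma. Calls are Myc in CTRL, Myc and Mki67 in the average, and Myc in β-catenin KO against CTRL in high CHIR.

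Ordered by group means, Myc ran from CTRL in high CHIR (348 ± 183, SD, n = 3) through α-catenin KO and QCKO in high CHIR (564 ± 221 and 702 ± 53.5, n = 2 each) to β-catenin KO in high CHIR (1097 ± 468, n = 3). The low CHIR groups followed, from β-catenin KO (1256 ± 318, n = 3) to α-catenin KO (1344 ± 382, n = 2), QCKO (1680.0 ± 415, n = 2) and CTRL (1705 ± 615, n = 3). Neighbours overlapped at every step but that from QCKO in high CHIR to β-catenin KO in high CHIR. For Mki67 the order ran from α-catenin KO in high CHIR (1052 ± 38.8, n = 2), CTRL in high CHIR (1257 ± 441, n = 3) and QCKO in high CHIR (1265 ± 276, n = 2) to β-catenin KO in low CHIR (1293 ± 302, n = 3) and high CHIR (1572 ± 275, n = 3). CTRL (1909 ± 285, n = 3), α-catenin KO (1947 ± 241, n = 2) and QCKO (2193 ± 407, n = 2) in low CHIR stood highest, and all neighbours overlapped. Ccnd1 ran from 363 ± 230.3 (SD, n = 2) in α-catenin KO in low CHIR to 1621 ± 997 (SD, n = 3) in β-catenin KO in high CHIR, and Top2a from 7185 ± 2862 (SD, n = 3) in β-catenin KO in low CHIR to 10379 ± 2151 (SD, n = 2) in QCKO in low CHIR. No neighbours in these orders were free of overlap.

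Genes of the cell cycle were counted in lists, which include the members Ccnd1, Mki67 and Top2a. The number of genes paired with an identifier was small, with 3 of 16 cyclin and CDK genes, 4 of 8 CDK inhibitors, 2 of 14 Rb and E2F genes, 6 of 42 S phase genes and 7 of 52 G2 and mitosis genes. A gene name was paired where the gene passed a threshold in at least 1 comparison table deposited for these samples. The members were paired by the identifiers above. Other genes of the lists may be in the data, but were not identified by name. The counts are thus not independent evidence of a direction. Because the named genes were picked by comparisons of these samples, the share of all genes called is not a like background for any of the lists. In the CHIR average, 3 of the 22 genes rose and 7 fell, where 18.3% of all genes were called, and the other 12 were not called. The median of all 16516 genes was -0.0014 on the log2 scale. Ccnd2, a second D-type cyclin, rose by 2.25 (adjusted p = 5.35e-06), where Ccnd1 was not called. Cdca7, a gene of S phase, rose by 0.58 (adjusted p = 0.00136), and the repressor gene E2f6 rose by 0.53 (adjusted p = 0.00808). None of Pcna, Tyms, Prim1, Gmnn and Tipin was called (-0.03 to 0.29), and the S phase median was 0.22.

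Besides Mki67, the genes of mitosis that fell were Psrc1 (-0.98, adjusted p = 0.00207) and Ckap2 (-0.64, adjusted p = 0.000611), which encode spindle proteins. Top2a, Birc5, Cks1b and Cks2 were not called (-0.23 to 0.23), and the median of the 7 genes was -0.23. Cdc25b, a phosphatase that promotes entry into mitosis, fell by 0.93 (adjusted p = 0.000768). The CDK inhibitors Cdkn2d (-0.95, adjusted p = 5.41e-05), Cdkn1b (-0.75, adjusted p = 0.000435) and Cdkn3 (-0.70, adjusted p = 0.0276) fell as well, and Cdkn1a was at 0.51 (adjusted p = 0.172). With each library rescaled to an equal total, 1 of the 22 genes rose in place of 3, and 7 fell. Where a log2 fold change over 1 was asked for a call, 1 rose and 0 fell.

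Of the 13 genes of Myc and its partners, 4 were paired with an identifier and 3 of these passed the filter on low values. Those 3, with Myc among them, all fell in the CHIR average. Mycl, below the filter, went the other way in CTRL, α-catenin KO and QCKO. It was at 0 to 5.09 in low CHIR and at 4.54 to 22.9 in high CHIR in these groups. In the average 18.3% of all genes were called. The same share stands beside the growth, Wnt and p53 lists, with the limit given above. Mxd3 fell by 1.62 (adjusted p = 4.73e-05) and Mxd4 by 1.15 (adjusted p = 0.000962). Both encode MXD proteins, which compete with Myc for its partner Max. A further list held genes of ribosome production and growth that respond to Myc in other cells. Of the 7 of 30 paired with an identifier, Apex1 (0.66, adjusted p = 0.000224), Npm1 (0.56, adjusted p = 0.0095) and Nme1 (0.51, adjusted p = 0.00792) rose. None was called lower, and the median was 0.40. The number that rose was 0 where a log2 fold change over 1 was asked, 1 with an equal total per library, 1 with quantile normalization, 1 without CTRL high CHIR replicate 2 and 1 without α-catenin KO high CHIR replicate 1. Among the Wnt targets paired with an identifier (8 of 11), 5 rose, with Notum at 5.97 (adjusted p = 3.11e-08), Sp5 at 4.80 (adjusted p = 4.18e-07), Lef1 at 4.16 (adjusted p = 2.72e-09) and Axin2 at 2.98 (adjusted p = 6.18e-08). Myc and Lgr5 (-0.98, adjusted p = 0.00651) fell, and Ccnd1 was not called. Of the p53 response genes paired with an identifier (5 of 10), 4 fell and none rose in the CHIR average. They were Eda2r (-1.61, adjusted p = 0.000301), Ccng1 (-1.35, adjusted p = 4.12e-05), Sesn2 (-1.15, adjusted p = 0.000179) and Trp53inp1 (-0.93, adjusted p = 0.00211).

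In β-catenin KO against CTRL in high CHIR the same 22 cell-cycle genes gave 4 that rose and 4 that fell, where 10.5% of all genes were called and the median of all 16691 genes was 0.02. Cdkn1a (1.74, adjusted p = 0.0499), Cdc25b (0.72, adjusted p = 0.0498), Cdkn1b (0.68, adjusted p = 0.0182) and Cdkn2d (0.58, adjusted p = 0.034) rose. Cdca7 (-0.94, adjusted p = 0.0102), Pcna, the sliding clamp of DNA polymerase (-0.76, adjusted p = 0.0238), Cks1b (-0.66, adjusted p = 0.0339) and E2f6 (-0.61, adjusted p = 0.0294) fell. The median was -0.64 over the 6 S phase genes and 0.00 over the 7 G2 and mitosis genes. Against CTRL in high CHIR the S phase median was also below 0 in QCKO (-0.57) and α-catenin KO (-0.31), with none of the 6 genes called. The median of the 7 growth genes was -0.66 in β-catenin KO, -0.47 in QCKO and -0.40 in α-catenin KO. The counts of cell-cycle genes that rose and fell rest on few libraries and on the processing. In a fit to the 6 libraries compared 0 rose and 0 fell, and the other settings gave up to 5 and 6. Leaving out 1 library in turn gave 0 to 2 that rose (0 without CTRL high CHIR replicate 3) and 1 to 6 that fell. The count that fell was 1 without CTRL high CHIR replicate 2, without the β-catenin KO library of replicate 1 or without the β-catenin KO library of replicate 2 in high CHIR. Of the Wnt targets paired with an identifier (8 of 11), Myc was the 1 called in high CHIR, where Axin2 was at -0.87 (adjusted p = 0.666) and Lef1 at -1.52 (adjusted p = 0.212). In low CHIR the values were 1.38 for Axin2 (adjusted p = 0.949), 3.60 for Notum (adjusted p = 0.727) and 2.05 for Lef1 (adjusted p = 0.619), and the median of the list was 1.03. Lef1 was at 62.3 in low CHIR and 93.6 in high CHIR in replicate 1 of β-catenin KO and at 532.5 to 1020.0 in replicates 2 and 3, so the spread was wide. Mxd4 (1.32, adjusted p = 0.04) and Mxd3 (1.21, adjusted p = 0.0249) rose with Myc. Nme1 (-0.85, adjusted p = 0.0204), Npm1 (-0.82, adjusted p = 0.0216) and Apex1 (-0.81, adjusted p = 0.0136) fell, and none of the 7 growth genes rose. The growth genes called fell to 0 when β-catenin KO high CHIR replicate 1 was left out. The number of p53 response genes that rose was 4 of 5. They were Cdkn1a, Ccng1 (1.38, adjusted p = 0.000608), Eda2r (1.25, adjusted p = 0.0233) and Sesn2 (1.00, adjusted p = 0.0108). Both comparisons use the CTRL libraries in high CHIR, so opposite signs between them are not independent.

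**Figure D4:**
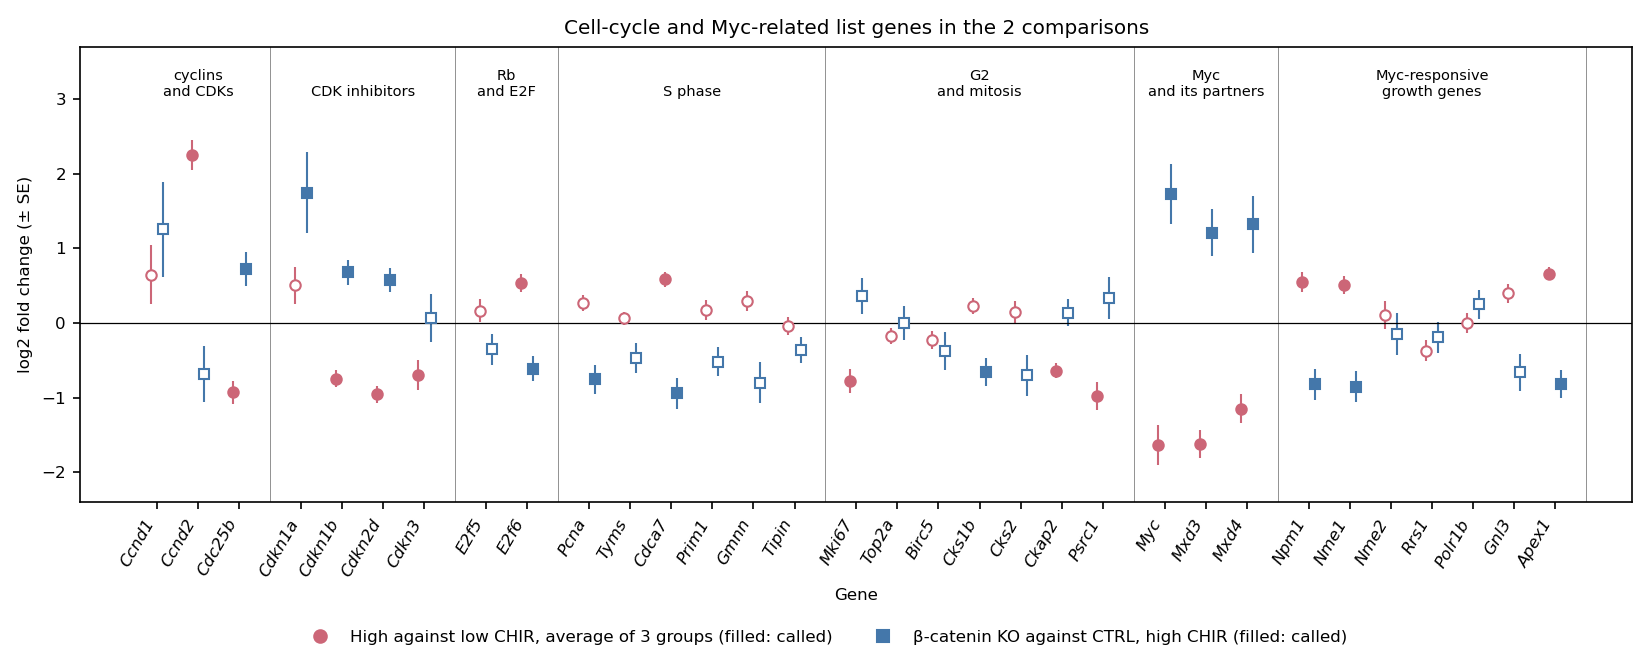
Log2 fold changes (± SE) of the cell-cycle and Myc-related list genes above the filter, for high against low CHIR averaged over CTRL, α-catenin KO and QCKO (circles) and for β-catenin KO against CTRL in high CHIR (squares), which share the CTRL libraries in high CHIR. Filled points were called. Myc, Mxd3 and Mxd4 lie at -1.63 to -1.15 in the first comparison and at 1.21 to 1.73 in the second.

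Some markers of other cells also differed between the doses. The summed normalized counts of the 2 of 10 stroma markers with an identifier, Meis1 and Meis2, were 2766 to 4318 in low CHIR and 1030.5 to 1666 in high CHIR in CTRL, α-catenin KO and QCKO. In these groups the 6 of 10 ureteric markers summed to 320.4 to 1457 in low CHIR and 890.8 to 2322 in high CHIR, but did not move together. In the CHIR average Gata3 (3.31) and Hoxb7 rose, while Krt8, Cdh1 and Tfap2b were at -0.25, -0.31 and -1.51 and were not called. Tek, the 1 of 8 endothelial markers, was at 0 to 7.64 in low CHIR and at 89.7 to 383 in high CHIR in the same groups, and no leukocyte marker of 8 had an identifier. In β-catenin KO in high CHIR the stroma sum was 1109 to 1654, the ureteric sum 592.7 to 1156 and Tek 4.62 to 85.3. None of the ureteric or stroma markers with an identifier was at 0 in every library of a group. Their part in the changes of Myc and Mki67 was not tested.

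Over the 20 libraries, the genes with a name and a mean of at least 100 whose profile was most like that of Myc were Tns2, Dock6, Dennd1a, Kmt2e and 2310039H08Rik (Pearson's r 0.922 to 0.906 on log2 values, 2860 genes compared). For Mki67 they were Epg5, Ube2cbp, Arhgap10, Tulp4 and Rnf157 (0.814 to 0.777), and for Ccnd1 Lama4, Dusp3, Jun, Sh3bp4 and Rnf41 (0.789 to 0.720). The genes most like Top2a were Mad2l1, Pbk, Gm13160, Tyms and Birc5 (0.756 to 0.710). Among the members, r was 0.694 for Myc with Mki67, 0.584 for Mki67 with Top2a and 0.164 for Myc with Top2a, and Ccnd1 gave 0.049 with Myc, -0.106 with Mki67 and -0.025 with Top2a. These values describe libraries that share culture dates, size factors and the groups themselves, and carry no test. Names were paired mainly for genes that passed a threshold in a deposited comparison of these samples. Genes without a name were not compared, so closer profiles may have been missed.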

How the data were processed

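Messenger RNA was sequenced from sorted cells in 20 libraries (18124772 to 28472412 reads). The signal values analysed were deposited by the authors as normalized counts of 31130 genes, reads divided by 1 size factor per library. Multiplying back gave whole reads (100% of values within 0.01 of a whole number, a check that is less telling in 2 libraries with a size factor near 1). The submitters' processing notes name STAR, featureCounts, Salmon and DESeq2 and the builds GRCm38, mm10 and GRCh38, with no role given. Deposited tables of the authors' comparisons hold log2 ratios and p-values, which were not used. Gene symbols came from those tables (4316 identifiers), and those of Ccnd1, Mki67 and Top2a from the identifiers under study.

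A pseudocount of 1 was added and log2 taken. Models with 1 mean per group were fitted by limma 3.58.1 under R 4.3.3 with eBayes and its trend option, and p-values were adjusted by Benjamini-Hochberg over all genes with a mean of at least 10. Fold changes are on this scale, which understates changes of low genes. Comparisons without β-catenin KO used 14 libraries (16516 genes), the others all 20 (16691 genes). The labels give a date without saying what was done on it, and no animals or litters. The p-values thus measure the spread between the libraries of a group. Libraries of 1 number share a date. Deviations from group means of the low and high CHIR libraries of a date correlated across genes at 0.047 to 0.721. The members, lists and tests were chosen with earlier results of these data known, and the equal total per library was added after seeing the data. For each member the 5 genes most like it were named, and of each list up to 5 called genes. Promoters and positions are from RefSeq. Whether counting used strand is not given in the sources used here. Alternatives also used edgeR 4.0.16 and DESeq2 1.42.0 on recovered reads.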

Additional observations from a re-analysis of the deposited data

Results flagged for a closer look

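The Mki67 ratios of high over low CHIR lay on opposite sides of 0 in CTRL and β-catenin KO, though neither response was called. All 3 date-matched CTRL pairs were lower in high CHIR (-0.84 to -0.34 on the log2 scale) and all 3 β-catenin KO pairs were above 0 (0.001 to 0.81). In 1 β-catenin KO pair the libraries were at 1625 and 1626, which is no difference. The interaction in limma was 0.94 (SE 0.33, 0.9387 before rounding) with an adjusted p of 0.307, so the difference did not pass the test. No other member had all of its pairs on opposite sides.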

How the results depend on the processing

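The fall of Myc in high CHIR in CTRL was called in all 18 alternatives (-2.76 to -1.91) and its average fall in all 25 (-1.77 to -1.48). The average fall of Mki67 was called in 24 of 25 and lost where a log2 fold change over 1 was asked (-0.78). The higher Myc in β-catenin KO in high CHIR was called in 14 of 17 and lost with only the compared groups (1.73). That setting called Mki67 in α-catenin KO (-0.88) and Myc (-1.24) and Mki67 (-0.80) in QCKO between the doses. DESeq2 called the Myc interaction of β-catenin KO (2.08). With the culture date as a replicate block Ccnd1 was called in β-catenin KO in high CHIR (1.26), and no other call on the members changed.

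All reversals were of values that were not called. Quantile normalization turned α-catenin KO against CTRL for Top2a (0.061 low, 0.077 high CHIR) and Ccnd1 (-0.107, high), QCKO in high CHIR for Mki67 (-0.003) and Top2a (0.143), and the Top2a interactions (0.015 α-catenin KO, 0.061 QCKO). The replicate block turned Ccnd1 in α-catenin KO in high CHIR (-0.169), Myc in QCKO in low CHIR (-0.107) and Top2a in QCKO in high CHIR (0.035). edgeR and DESeq2 turned Ccnd1 in α-catenin KO in high CHIR (-0.280, -0.274), Myc in QCKO in low CHIR (-0.044, -0.026), Mki67 in QCKO in high CHIR (-0.012, -0.002), the QCKO interaction of Ccnd1 (-0.028, -0.018) and Top2a in β-catenin KO in high CHIR (-0.002, -0.020). An equal total per library turned Top2a in α-catenin KO (0.039 low, 0.081 high CHIR), in QCKO in high CHIR (0.140) and in both interactions (0.042, 0.031).

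Leaving out 1 library gave these ranges, mostly where a sign or call changed. Between doses, Ccnd1 ran from -0.035 to 1.115 in CTRL and from -0.072 to 1.202 in QCKO, and Mki67 in CTRL from -0.916 to -0.456. In α-catenin KO against CTRL in low CHIR Ccnd1 ran from -1.046 to 0.342, Mki67 from -0.092 to 0.160 and Top2a from -0.170 to 0.036, and in high CHIR Ccnd1 from -0.598 to 0.553, Mki67 from -0.393 to 0.067 and Top2a from -0.126 to 0.027. In QCKO in low CHIR Myc ran from -0.236 to 0.286, Ccnd1 from -0.271 to 0.669 and Top2a from -0.153 to 0.273, and in high CHIR Ccnd1 from -0.362 to 0.912, Mki67 from -0.177 to 0.316 and Top2a from -0.100 to 0.072. Among those that kept their sign, Top2a in β-catenin KO in low CHIR ran from -0.807 to -0.181, Ccnd1 and Mki67 in β-catenin KO in high CHIR from 0.651 to 1.802 and from 0.171 to 0.631, the Top2a and Mki67 interactions of β-catenin KO from 0.182 to 0.808 and from 0.748 to 1.208, Ccnd1 between doses in α-catenin KO from 0.176 to 1.564, Top2a between doses in QCKO from -0.435 to -0.009, Top2a in the average from -0.247 to -0.105 and Myc in α-catenin KO in high CHIR from 0.317 to 1.205. In β-catenin KO in high CHIR Myc ran from 1.255 to 2.108 and Top2a from -0.059 to 0.044. The interactions of α-catenin KO ran from -0.335 to 1.053 (Ccnd1), -0.427 to 0.034 (Mki67) and -0.086 to 0.121 (Top2a), those of QCKO from -0.582 to 0.691, -0.375 to 0.118 and -0.287 to 0.139, and that of β-catenin KO from -0.020 to 1.131 (Ccnd1).

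Counts over all genes moved more. With only the compared groups 761 genes were called between doses in CTRL (main 1760), 1855 in QCKO (main 814), 240 in β-catenin KO against CTRL in high CHIR (main 1757) and 50 in its interaction (main 112). That setting called 0 genes in β-catenin KO against CTRL in low CHIR (main 11) and 0 between the doses of β-catenin KO (main 3). The replicate block called 1186 in α-catenin KO (main 725), 1278 in QCKO, 2881 in β-catenin KO in high CHIR, 74 in low CHIR (main 11), 40 between its doses (main 3) and 400 in its interaction. DESeq2 called 1095, 1229, 189, 57 and 328 in α-catenin KO, QCKO, β-catenin KO in low CHIR, between its doses and in its interaction. A mean of at least 100 left 540 in QCKO and 1883 in the average (main 3018), and a log2 fold change over 1 left 1710 in the average and 1117 in β-catenin KO in high CHIR. The cause of these changes was not tested. With 2 or 3 libraries a group the intervals of Ccnd1 were the widest of the members. The size of difference that could be detected was not calculated.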
